A study of Mus musculus with 35 samples.

Results

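The 10 genes described here encode inflammatory cytokines and CC chemokines, namely Il1a, Il1b, Tnf and Il6 among the cytokines and Ccl2, Ccl3, Ccl4, Ccl6, Ccl9 and Ccl12 among the chemokines. They were taken by symbol from the 55401 genes of the raw count table, after its Ensembl identifiers had been matched to gene names, and all 10 were found. The libraries came from CD45+ cells of whole brain of wild-type C57BL/6 mice, female and male, at postnatal day 6 (P6), at P15 and at 8 weeks of age, and each mouse gave 1 library. No mouse carried a transgene or received a treatment. Cells were caught by immunopanning, in which a digested brain suspension is left on a dish coated with antibody to CD45, a surface protein of blood-derived and microglial cells. The antibody also binds other leukocytes. The comparison used 34 mice: 4 females and 6 males at P6, 6 females and 6 males at P15, and 6 females and 6 males at 8 weeks. The study removed 1 mouse as an outlier, and P6 female 6 is the only mouse of the count table that is absent from its list of plotted mice. That mouse is given separately.

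Microglia are the resident macrophages of the brain, and like other macrophages they can transcribe these genes quickly when pattern-recognition or cytokine receptors are engaged. IL-1, TNF and IL-6 act on receptors of neighbouring cells to start and spread inflammation, whereas CC chemokines bind G-protein-coupled receptors and attract monocytes, lymphocytes and other leukocytes. Many of these transcripts are short-lived, and dissociation of brain tissue is known to induce some of them in microglia.

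The labelled cell type was checked against its markers first. All 6 microglial markers were detected, with a summed level, in counts scaled to a common library size (CPM), from 5703 to 9952 at P6, from 12206 to 22899 at P15 and from 15941 to 22407 at 8 weeks, so they rose while most of the 10 genes fell between P6 and P15. Markers of neural progenitors and immature neurons summed to 651 to 2020 CPM at P6, to 119 to 895 CPM at P15 and to 90.0 to 206 CPM at 8 weeks. At P6, P15 and 8 weeks, markers of the oligodendrocyte lineage had a median sum of 343, 1303 and 470 CPM and those of astrocytes of 630, 1428 and 1267 CPM, both highest at P15. Markers of neurons (706, 318 and 110 CPM), mural cells and fibroblasts (252, 151 and 115 CPM) and mast cells (43.6, 13.9 and 4.24 CPM) had their highest median sum at P6, and endothelial markers had 73.8, 138 and 141 CPM. The neuronal sum was carried by Tubb3 and Stmn2, while Syt1, Snap25 and Nefl had their highest mean at P15, and 4 of the 6 neuronal markers were higher at P15 than the mean of the other ages and none was lower. The 9 markers of border macrophages and monocytes had a median sum of 993, 859 and 486 CPM, and Mrc1 was the highest of them (585 CPM at P6). From P6 to P15 4 of them rose and 3 fell. From P15 to 8 weeks 6 fell, among them Mrc1 (376 to 228 CPM) and Lyve1 (66.3 to 20.7 CPM), and 2 rose, Ccr2 and Ly6c2. The 8 markers of T and NK cells summed to at most 4.63 CPM at P6 and to at most 56.5 CPM at 8 weeks. The 8 neutrophil markers, of which 7 passed the filter, had a median summed CPM of 29.1 in P6 mice, 40.6 in P15 mice and 83.9 in 8-week mice. From P15 to 8 weeks 4 of them rose, among them S100a8 and S100a9, and 2 fell, Camp and Ngp. At 8 weeks the sum was 33.6 to 71.2 CPM in females and 96.7 to 217 CPM in males. The part of these cells in the results below was not tested, and in bulk RNA fewer cells of a type and less RNA per cell cannot be told apart. Gene counts summed to between 23316107 and 38965078 fragments in a mouse, and 3 counts, used as the smallest level that could be detected, corresponded to 0.0770 to 0.129 CPM. That floor covers counting error only.

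The genes lie in 5 places of the mouse genome (GRCm38, GENCODE M21). Il1a (ENSMUSG00000027399, chr2:129299610-129309972) and Il1b (ENSMUSG00000027398, chr2:129364570-129371139) are neighbours on the minus strand of chromosome 2. Tnf (ENSMUSG00000024401) is at chr17:35199381-35202007 and Il6 (ENSMUSG00000025746) at chr5:30013114-30019981. The 6 chemokine genes are on chromosome 11, with Ccl2 (ENSMUSG00000035385, chr11:82035571-82037453) and Ccl12 (ENSMUSG00000035352, chr11:82101845-82103400) in a first group. Ccl9 (ENSMUSG00000019122, chr11:83572919-83578636), Ccl6 (ENSMUSG00000018927, chr11:83587882-83593087), Ccl3 (ENSMUSG00000000982, chr11:83647844-83649355) and Ccl4 (ENSMUSG00000018930, chr11:83662584-83664683) form the second. The longest exact stretch shared by the transcripts of any pair was 25 bases, between Ccl6 and Ccl9. Exons of Il1a overlap 222 bases of Gm14023 and those of Il1b overlap 25 bases of Il1bos, both on the opposite strand, and counting was by strand.

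Promoter sequences from RefSeq (GRCm38.p6, 250 bases before to 50 after the start of the gene) were matched for 8 of the 10 genes, and 4 are shown because they belong to the cytokines among the 10, which followed different courses with age. Il1a, Il1b and Tnf were lowest at P15, and Il6 rose at each step. Capitals mark matches on either strand to TATAAA (the TATA box), to TGANTCA (as bound by AP-1) or to GGGNNNNNCC (as bound by NF-kappa-B). Matches may overlap, as the neighbouring GGGNNNNNCC matches of Il6 do.
Il1a chr2:129309923-129310222, minus strand: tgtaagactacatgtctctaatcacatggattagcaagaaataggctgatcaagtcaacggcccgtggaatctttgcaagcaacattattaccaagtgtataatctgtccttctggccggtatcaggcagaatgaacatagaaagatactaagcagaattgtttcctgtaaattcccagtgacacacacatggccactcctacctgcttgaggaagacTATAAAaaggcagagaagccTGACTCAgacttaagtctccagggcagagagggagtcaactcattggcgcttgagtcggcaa
Il1b chr2:129371090-129371389, minus strand: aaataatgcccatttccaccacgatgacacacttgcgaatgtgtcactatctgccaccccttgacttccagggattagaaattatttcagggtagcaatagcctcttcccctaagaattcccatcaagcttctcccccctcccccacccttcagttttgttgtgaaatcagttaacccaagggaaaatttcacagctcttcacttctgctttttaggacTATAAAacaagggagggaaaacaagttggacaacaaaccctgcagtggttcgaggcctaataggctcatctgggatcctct
Tnf chr17:35201958-35202257, minus strand: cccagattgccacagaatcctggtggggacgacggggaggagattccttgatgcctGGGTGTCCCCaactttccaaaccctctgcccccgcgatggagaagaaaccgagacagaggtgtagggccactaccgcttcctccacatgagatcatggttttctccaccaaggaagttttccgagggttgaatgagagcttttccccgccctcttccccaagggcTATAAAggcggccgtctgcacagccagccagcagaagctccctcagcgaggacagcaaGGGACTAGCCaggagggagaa
Il6 chr5:30012864-30013163, plus strand: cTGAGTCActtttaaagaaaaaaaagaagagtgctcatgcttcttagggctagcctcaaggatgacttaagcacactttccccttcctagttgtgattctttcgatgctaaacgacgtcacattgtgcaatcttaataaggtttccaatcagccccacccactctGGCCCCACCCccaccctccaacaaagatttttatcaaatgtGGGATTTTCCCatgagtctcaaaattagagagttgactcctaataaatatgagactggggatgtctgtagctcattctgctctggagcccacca
TATAAA was found in 5 of the 8 promoters (Il1a, Il1b, Tnf, Ccl9 and Ccl12) and in 13.6% of all 32851 promoters of this length. In Il1a, Il1b and Tnf the match began 32, 31 and 29 bases before the start, and the Il6 window held none. TGANTCA was found in 3 of the 8 (Il1a, Il6 and Ccl9), against 7.81% of all promoters, and GGGNNNNNCC in 3 (Tnf, Il6 and Ccl9), against 50.8%. These matches describe letters and not binding.

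Compared per length of exon, as RPKM, which divides CPM by the exon length in kilobases, the MIP-1 chemokines Ccl3 and Ccl4 were the highest of the 10 at every age. At P6 the mean RPKM level was 1021 for Ccl3 and 821 for Ccl4, followed by 173 for Tnf, 127 for Il1a, 118 for Ccl12, 108 for Ccl2, 83.9 for Ccl6, 52.0 for Ccl9, 18.0 for Il1b and 0.278 for Il6. Ccl3 thus ranked 21st and Ccl4 31st of 17612 genes that passed the filter at P6. Il1b and Il6 came last at all 3 ages, and Ccl2 moved from the sixth place at P6 to the eighth at P15 and 8 weeks. All 10 genes passed the filter on low counts (0.5 CPM in 5 mice). The lowest count was 8 fragments, for Il6, while each of the other genes had at least 188 fragments in every mouse.

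The mice at P6 were first compared with those at P15. Most of these cytokine and chemokine transcripts fell: 7 of the 10 fell, Il6 alone rose, and Ccl9 and Ccl12 did not pass the test (edgeR quasi-likelihood, FDR below 0.05 over all genes). Of all 17612 genes tested, 31.4% fell and 30.4% rose in this comparison. The median log2 fold change (log2FC) of the 10 was −0.76, beside −0.01 over all genes. The study used a 2-fold threshold, and a gene is called past 2-fold here where a test against that change passed (glmTreat, FDR below 0.05). Ccl2 was the only member that passed it, beside 4.85% of all genes that fell past it. By point estimate Il1b (2.36-fold), Tnf (2.18-fold) and Ccl3 (2.17-fold) also fell more than 2-fold.

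From P15 to 8 weeks the direction turned. Il1a, Il1b, Tnf, Il6, Ccl3, Ccl4 and Ccl6 rose, none of the 10 fell, and Ccl2, Ccl9 and Ccl12 did not pass the test, while 24% of all genes rose. The median log2FC was 1.03, beside 0.02 over all genes. Il1b and Il6 passed the test against 2-fold, beside 1.2% of all genes that rose past it. By point estimate Il1a (2.06-fold), Tnf (2.08-fold), Ccl3 (2.14-fold) and Ccl4 (2.01-fold) also rose more than 2-fold. Il1a and Ccl6 were not called with either of the 2 covariates given further below, and Ccl9 and Ccl12 fell with neural markers as the covariate.

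Between P6 and 8 weeks, Il1b and Il6 were higher at 8 weeks and Ccl2 and Ccl6 were lower, and the other 6 did not pass the test. In this comparison 37.8% of all genes rose and 36.6% fell. Il6 rose past 2-fold, as did 11.5% of all genes, and Ccl2 fell past 2-fold, as did 12.4%. At P15, 8 of the 10 were lower than the mean of the younger and older mice, against 15.8% of all genes, and Ccl9 and Ccl12 again did not pass. These 4 comparisons share mice, since each age enters several of them, so their counts are not independent of each other.

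**Figure D1:**
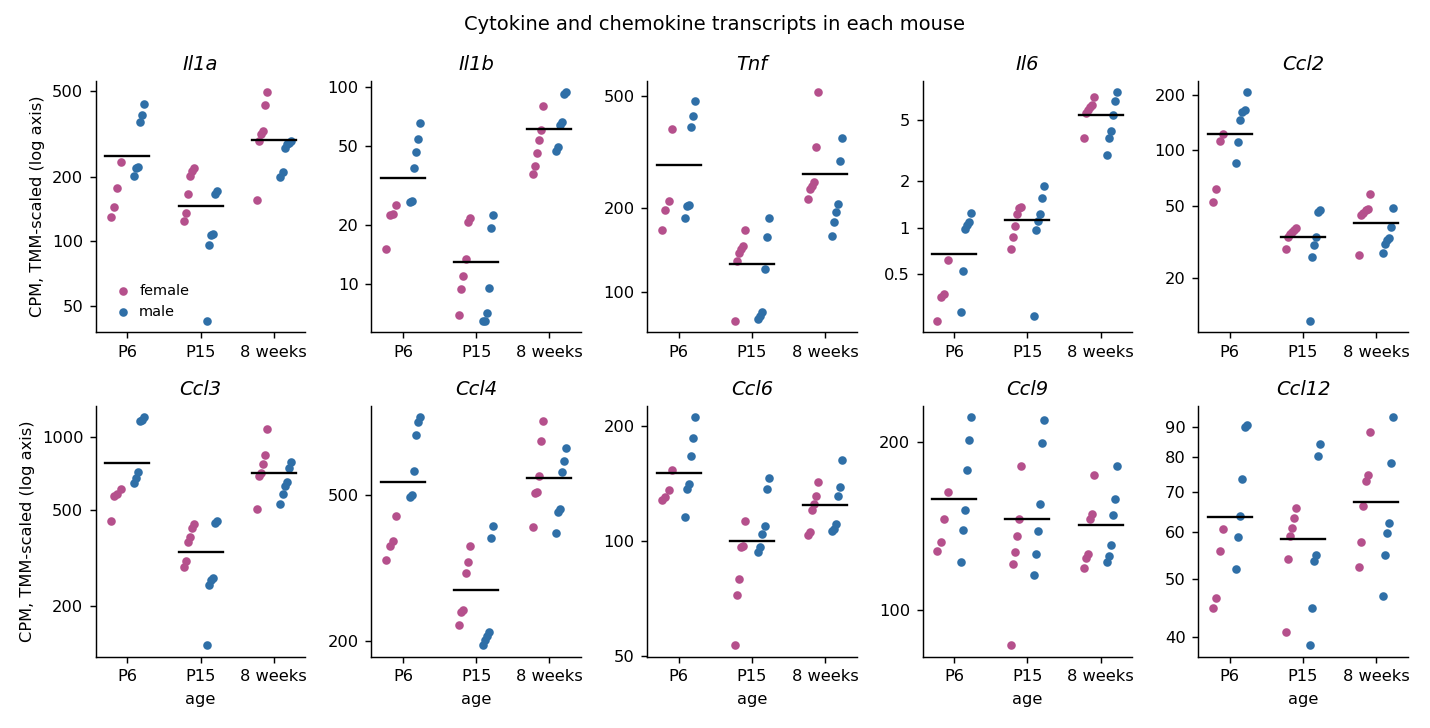
Level of each gene in each of 34 mice, as TMM-scaled CPM on a log axis, by age; purple points are females, blue points are males and the black line is the mean of the age. Ccl2 at P15 lies below every P6 mouse, and Il1b, Il6 and Ccl3 at 8 weeks lie above every P15 mouse.

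Il1a and Il1b encode the forms of interleukin-1, both of which signal through the receptor Il1r1. Il1a ranged from 130 to 439 CPM in P6 mice (median 221, n = 10), from 42.8 to 221 CPM in P15 mice (median 150, n = 12) and from 155 to 494 CPM in 8-week mice (median 290, n = 12). The P15 mice were the low ones, and the ages overlapped in all 3 pairs. Its log2FC was −0.68 ± 0.19 (SE) from P6 to P15 (FDR = 0.00337) and 1.04 ± 0.19 from P15 to 8 weeks (FDR = 3.56e-05).

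Il1b, whose product is cleaved before release, ranged from 15.01 to 65.3 CPM in P6 mice (median 26.2), from 6.51 to 22.4 CPM in P15 mice (median 10.3) and from 36.3 to 93.8 CPM in 8-week mice (median 57.2). All 12 mice at 8 weeks were above all 12 at P15, and 8 of the 12 P15 mice were below every P6 mouse. The log2FC was −1.24 ± 0.23 from P6 to P15 (FDR = 2.77e-05) and 2.23 ± 0.23 from P15 to 8 weeks (FDR = 2.54e-09). Il1b at 8 weeks also exceeded the P6 level, with a log2FC of 0.99 ± 0.23 (FDR = 0.000357), with 4 of 12 mice above every P6 mouse. With either of the 2 covariates given further below this call was lost, and the log2FC was −0.29 and −0.13.

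Tnf, the gene for tumour necrosis factor, ranged from 167 to 481 CPM in P6 mice (median 208), from 79.3 to 184 CPM in P15 mice (median 134) and from 159 to 515 CPM in 8-week mice (median 236). P6 mice fell into separate ranges, with 6 mice up to 211 CPM and 4 from 382 CPM upwards. Of the 12 P15 mice, 11 were below every P6 mouse. The log2FC was −1.12 ± 0.21 from P6 to P15 (FDR = 2.30e-05) and 1.06 ± 0.20 from P15 to 8 weeks (FDR = 6.56e-05), and between P6 and 8 weeks the change of −0.07 ± 0.21 was smaller than its error.

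Il6, which signals through Il6ra and Il6st, was the lowest of the 10 and the only one that rose at both steps. It ranged from 0.250 to 1.24 CPM in P6 mice (median 0.573), from 0.270 to 1.87 CPM in P15 mice (median 1.16) and from 2.97 to 7.48 CPM in 8-week mice (median 5.61). The 8-week mice lay above all younger mice, whereas P6 and P15 overlapped. The log2FC was 0.94 ± 0.26 from P6 to P15 (FDR = 0.00210), 2.24 ± 0.23 from P15 to 8 weeks (FDR = 2.70e-09) and 3.18 ± 0.27 from P6 to 8 weeks (FDR = 3.49e-12), a 9.05-fold rise. Every mouse was above the floor of 3 counts.

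Ccl2 and Ccl12 encode monocyte chemoattractants that act on Ccr2. Ccl2 ranged from 52.0 to 207 CPM in P6 mice (median 118), from 11.7 to 47.3 CPM in P15 mice (median 34.3) and from 26.9 to 57.8 CPM in 8-week mice (median 41.1). The P6 and P15 mice did not overlap, and 11 of the 12 mice at 8 weeks were below every P6 mouse. Its log2FC was −1.75 ± 0.18 from P6 to P15 (FDR = 1.10e-09), a 3.37-fold fall, and −1.51 ± 0.18 from P6 to 8 weeks (FDR = 9.79e-09). From P15 to 8 weeks the difference was 0.24 ± 0.17 (FDR = 0.253). Ccl12 had 44.8 to 90.6 CPM in P6 mice (median 59.8), 38.7 to 84.4 CPM in P15 mice (median 57.0) and 46.9 to 93.5 CPM in 8-week mice (median 64.2). None of its comparisons between ages passed the test, with FDR values of 0.711, 0.186 and 0.343 for P15 against P6, 8 weeks against P15 and 8 weeks against P6. Non-overlap of whole age groups was seen for 1 member between P6 and P15 (13% of all genes), for 3 between P15 and 8 weeks (3.37% of all genes) and for 1 between P6 and 8 weeks (29.6% of all genes).

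Ccl3 and Ccl4 encode MIP-1 alpha and MIP-1 beta, which attract monocytes and lymphocytes. Ccl3 ranged from 450 to 1212 CPM in P6 mice (median 664), from 137 to 451 CPM in P15 mice (median 338) and from 504 to 1081 CPM in 8-week mice (median 702). All mice at 8 weeks exceeded all mice at P15, and 11 of 12 P15 mice were below every P6 mouse. The log2FC was −1.12 ± 0.16 from P6 to P15 (FDR = 4.21e-07) and 1.10 ± 0.15 from P15 to 8 weeks (FDR = 8.81e-07). Ccl4 followed the same course, with 333 to 815 CPM in P6 mice (median 497), 194 to 410 CPM in P15 mice (median 241) and 395 to 796 CPM in 8-week mice (median 536). Its P15 mice were the low ones, 9 of 12 of them below every P6 mouse. Its log2FC was −0.85 ± 0.14 (FDR = 7.77e-06) and 1.01 ± 0.14 (FDR = 7.17e-07) at the same steps. Between P6 and 8 weeks neither gene passed the test (log2FC −0.02 ± 0.16 and 0.16 ± 0.15).

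Ccl6 and Ccl9 encode chemokines of myeloid cells that act on Ccr1. Ccl6 ranged from 116 to 211 CPM in P6 mice (median 139), from 53.4 to 146 CPM in P15 mice (median 97.1) and from 104 to 163 CPM in 8-week mice (median 123). The ages overlapped in every pair, with 10 of 12 P15 mice below every P6 mouse. Its log2FC was −0.58 ± 0.11 from P6 to P15 (FDR = 6.06e-05) and 0.32 ± 0.11 from P15 to 8 weeks (FDR = 0.0147). The lower level at 8 weeks than at P6, −0.25 ± 0.11 (FDR = 0.0453), no longer passed when any of 10 mice was left out singly, and the rise from P15 no longer passed without 8-week female 5 (FDR = 0.0531) or without P15 male 3 (FDR = 0.0527). Ccl9 passed the test between no ages, with 122 to 222 CPM in P6 mice (median 148), 86.6 to 220 CPM in P15 mice (median 137) and 119 to 181 CPM in 8-week mice (median 138), and none of its FDR values fell below 0.351. Without TMM, scaled by library size alone, Ccl9 fell from P6 to P15 (log2FC −0.23, FDR = 0.0330) and was lower at 8 weeks than at P6 (log2FC −0.27, FDR = 0.0107).

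**Figure D2:**
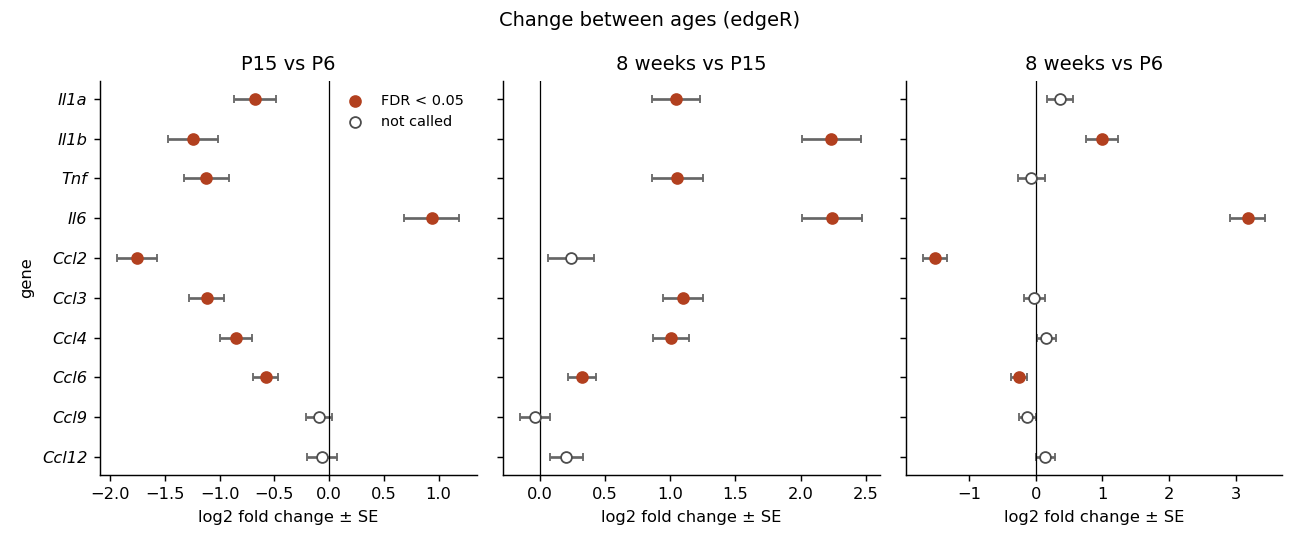
log2 fold change of each gene between ages, with its standard error (SE), from the edgeR fit over 34 mice; filled points passed FDR below 0.05 over all genes. Most points lie left of 0 from P6 to P15 and right of 0 from P15 to 8 weeks, and only Il6 lies well right of 0 in all 3 panels.

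The levels of 2 gene lists used as covariates, immediate-early and heat-shock genes and neural markers, moved with age as well. How far the first reflects tissue handling in these mice was not tested. Immediate-early and heat-shock genes, which respond to tissue dissociation, had a mean log2 CPM of 7.94 ± 0.26 (SD, n = 10) in P6 mice, 8.45 ± 0.34 (n = 12) in P15 mice and 9.14 ± 0.25 (n = 12) in 8-week mice. Of the 18 genes of that list, 7 rose and 4 fell from P6 to P15, and 13 rose and none fell from P15 to 8 weeks. With this level as a covariate, all 10 genes were called from P6 to P15, as were 52% of all genes, since Ccl9 (log2FC −0.36, FDR = 0.0255) and Ccl12 (−0.39, FDR = 0.0266) fell as well. From P15 to 8 weeks, 5 were then called, beside 24% of all genes, without Il1a (log2FC 0.67, FDR = 0.0501) and Ccl6 (0.09, FDR = 0.665). From P6 to 8 weeks Il1b was no longer called (−0.29, FDR = 0.567), and Ccl3, Ccl4, Ccl9 and Ccl12 were called as lower, which made 7 members beside 45.9% of all genes. With neuronal and progenitor markers as the covariate instead, all 10 were called from P6 to P15, beside 53.7% of all genes, and Ccl9 (−0.57) and Ccl12 (−0.59) again fell from P6 to P15. From P15 to 8 weeks Il1a (0.34), Tnf (0.38) and Ccl6 (−0.22, FDR = 0.154) were no longer called, and Ccl9 (−0.66, FDR = 2.38e-05) and Ccl12 (−0.51, FDR = 0.00243) fell, with 6 members and 39.3% of all genes called. From P6 to 8 weeks Il1b was not called (−0.13), and Tnf, Ccl3, Ccl4, Ccl9 and Ccl12 were called as lower, which made 8 members beside 48.9% of all genes. Past 2-fold, 4 members were called from P6 to P15 with either covariate (7.47% of all genes with the first and 8.53% with the second), 1 from P15 to 8 weeks (1.46% and 3.17%) and 2 from P6 to 8 weeks (11.5% and 15.7%). Each covariate differs between the ages, so its part and that of age cannot be told apart.

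Within an age, some members moved with the immediate-early list from mouse to mouse. Each of the 10 genes was correlated with that list at each age, 30 relations in all, and 8 passed by Pearson's r after Benjamini-Hochberg adjustment, with 5 in the P15 mice, 3 in the 8-week mice and none in the P6 mice. The smallest r that passed was 0.708, and 1.85%, 4.04% and 0.955% of all genes outside the list reached it at P6, P15 and 8 weeks. At P15, Ccl4 had r = 0.94 and rho = 0.909 (100000 permutations, n = 12, p = 3e-05 and 0.00015, adjusted 0.0009 and 0.00225), and r was 0.905 without the 2 mice farthest from the median. Il1b at P15 had r = 0.828 and rho = 0.818 (permutation p = 0.00091 and 0.00214, adjusted 0.0091 and 0.0177), with r = 0.762 without those mice. Ccl3 at P15 had r = 0.753 and rho = 0.944 (permutation p = 0.00453 and 3e-05, adjusted 0.0302 and 0.0009), with r = 0.741 without them. All 3 were higher in the P15 mice with a higher list level. Ccl12 at P15 rested on those 2 mice, since r fell from 0.708 (rho 0.615, permutation p = 0.0109 and 0.0378, adjusted 0.0408 and 0.0945) to 0.373. Tnf at P15 passed by r alone, with r = 0.725 and rho = 0.664 (adjusted permutation p = 0.0364 and 0.0605). Without those 2 mice its r was 0.592. Tnf at P15 fell into separate ranges, and in the larger of them, of 8 mice, r was 0.637. With library size scaling, Ccl12 (r = 0.561, adjusted permutation p = 0.174) and Tnf at P15 no longer passed.

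At 8 weeks the relation passed for Ccl2, with r = 0.825 and rho = 0.769 (permutation p = 0.00055 and 0.00487, adjusted 0.00825 and 0.0271), and without the 2 farthest mice r was 0.695. It also passed for Ccl4, with r = 0.739 and rho = 0.748 (permutation p = 0.00503 and 0.00692, adjusted 0.0302 and 0.0297), and there r was 0.643 without them. Ccl3 had r = 0.726 and rho = 0.762 (permutation p = 0.00849 and 0.00542, adjusted 0.0364 and 0.0271), and r was 0.588 without them. With library size scaling, neither Ccl4 (r = 0.663, adjusted permutation p = 0.0798) nor Ccl3 (r = 0.715, adjusted permutation p = 0.0555) passed at 8 weeks by r, although Ccl3 passed by rho. Ccl2 at P15 and Tnf at 8 weeks passed by rho alone (rho 0.804 and 0.720, permutation p = 0.00236 and 0.0106, adjusted 0.0177 and 0.0398). Tnf at 8 weeks passed by neither measure with all 35 mice or with library size scaling, and Ccl2 at P15 passed by neither after each sex was centred (rho 0.566, adjusted permutation p = 0.144). Il1a, Il6, Ccl6 and Ccl9 passed at no age by either measure in the 34 mice. With P6 female 6 added, Ccl6 and Ccl9 at P6 (r = 0.810 for each, adjusted permutation p = 0.0332), Ccl4 and Ccl12 at P6 and Il1a at 8 weeks (r = 0.692, adjusted permutation p = 0.0363) passed by r, and none of these 5 passed by rho.

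**Figure D3:**
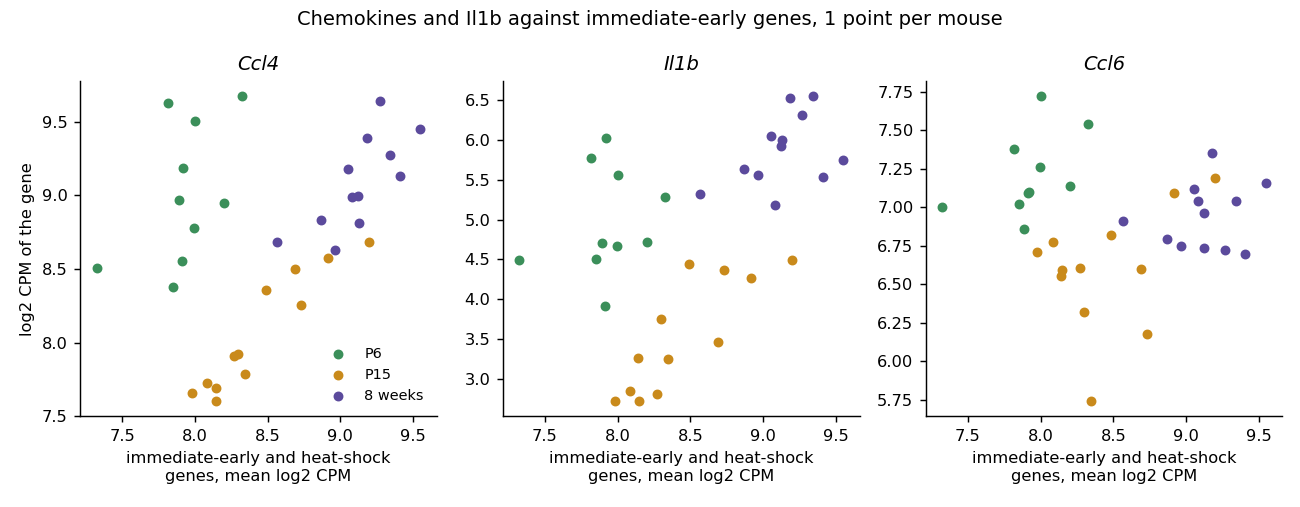
log2 CPM of Ccl4, Il1b and Ccl6 against the mean log2 CPM of immediate-early and heat-shock genes, 1 point per mouse, coloured by age (10 mice at P6, 12 at P15, 12 at 8 weeks). Within P15, Ccl4 and Il1b rise with the list (r = 0.94 and 0.828), whereas the relation of Ccl6 did not pass at any age in these 34 mice.

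Neighbouring genes and partners were compared with each other in the same way, for 6 pairs at 3 ages. Of these 18 relations, 13 passed by r after adjustment, and 13 after the mean of each sex was subtracted, but not the same ones. The share of other gene pairs that pass was not counted, so the 13 are not shown to be particular to neighbours or partners. Il1a with Il1b at P6 (r = 0.723, adjusted permutation p = 0.0284) and Ccl3 with Il1b at P6 (r = 0.721, adjusted permutation p = 0.0284) were lost, with r = 0.432 and 0.401 and adjusted p = 0.245 and 0.273. Il1b with Tnf (r = 0.866) and Ccl3 with Il1b (adjusted permutation p = 0.0381) at 8 weeks were gained. With library size scaling Il1b with Tnf at P15 was lost (r = 0.601, adjusted permutation p = 0.0614). Ccl6 and Ccl9, which lie side by side, had r = 0.985 at P6 (rho 0.964, n = 10, permutation p = 1e-05 and 5e-05, adjusted 6e-05 and 0.000405), r = 0.927 at P15 and r = 0.948 at 8 weeks. Without the 2 farthest mice these were 0.957, 0.820 and 0.913. Ccl3 and Ccl4 had r = 0.811 at P15 (rho 0.937, n = 12, permutation p = 0.00079 and 3e-05, adjusted 0.00203 and 0.000405), and at P6, where Ccl3 fell into separate ranges, r was 0.913 in the larger range of 7 mice. Il1a and Il1b were related at P15 (r = 0.750, rho 0.818, permutation p = 0.00183 and 0.00189, adjusted 0.00366 and 0.00378) and not detectably at 8 weeks (r = 0.0590, rho −0.140, permutation p = 0.858 and 0.668, adjusted 0.858 and 0.668).

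After the mean of each age and sex group was removed, the genes most like each member over the 34 mice were listed as a description. Tnf was closest to Dusp2 (r = 0.947), Csrnp1 (0.921) and Nfkbia (0.911), and Il1a to Nfkbiz (0.905). Ccl3 was closest to Mcl1 (0.934), Ccl4 to Osm (0.907), Ccl12 to Ripk3 (0.903) and Ccl2 to Rfx5 (0.864). Ccl6 was closest to Ccl9 (0.957) and next to Cd68 (0.956), and Ccl9 to Ccl6 and then to Creg1 (0.943) and Ctsb (0.940). Il1b had the weakest leading gene, Arl5c (0.775), and Il6 was closest to Gng2 (0.814).

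The members also differed in how much mice of 1 group varied. The residual SD of log2 CPM within age and sex groups was 0.50 for Il1a, 0.56 for Il1b, 0.50 for Tnf, 0.47 for Ccl2 and 0.39 for Ccl3, each wider than in at least 91.1% of the genes at a similar level. It was 0.34 for Ccl4, 0.27 for Ccl6, 0.29 for Ccl9 and 0.33 for Ccl12, wider than in 85.9%, 70.8%, 74.5% and 79.9% of the genes at a similar level. Il6, with 0.59, was close to the median of 0.56 of genes at its level.

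The study balanced its groups by sex, and sexes were compared within each age. None of the 10 genes passed between males and females at P6, P15 or 8 weeks in edgeR, where 0.0511%, 0.0681% and 0.114% of all genes passed, nor in DESeq2 or limma-voom. At an unadjusted p under 0.05 there were 7 members at P6, 2 at P15 and 0 at 8 weeks, beside 7.1%, 18.2% and 2.94% of all genes. At P6 all 10 were higher in males by point estimate, and the share of all genes that were higher was not counted. Ccl4 at P6 had 652 ± 144 CPM (SD, n = 6) in males and 378 ± 44.3 CPM (n = 4) in females, a log2FC of 0.79 ± 0.22 (edgeR FDR = 0.674). Il1b at P6 was 43.0 ± 15.7 CPM in males and 21.4 ± 4.43 CPM in females (edgeR FDR = 0.696). The microglial markers at P6 had a median sum of 7727 CPM in males and 6225 CPM in females. Markers of neural progenitors and immature neurons had 1120 CPM in males and 1777 CPM in females, and those of neurons 515 and 762 CPM, and their part in these differences was not tested. The interaction of sex and age from P6 to 8 weeks passed for none of the 10 and for 0% of all genes in edgeR, with 5 members and 5.1% of all genes at an unadjusted p under 0.05, and no member passed in DESeq2 or limma-voom. From P6 to P15 the interaction also passed for no gene in edgeR, with 5 members and 20.4% of all genes at an unadjusted p under 0.05.

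**Figure D4:**
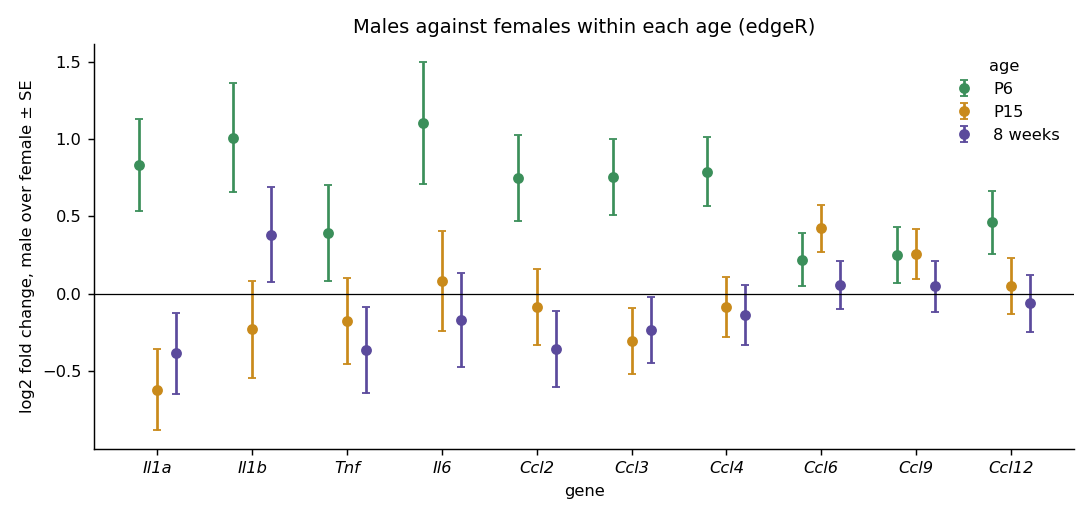
log2 fold change of males over females with its SE (edgeR), for each gene at P6, P15 and 8 weeks. At P6 all 10 points lie above 0, at P15 and 8 weeks they lie on both sides, and none passed FDR below 0.05.

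P6 female 6, which was left out of these comparisons, was below the lowest of the 10 other P6 mice for 8 of the 10 genes. Among these, its Ccl12 was 20.5 CPM, its Ccl6 52.8 CPM, its Ccl9 59.0 CPM and its Ccl4 206 CPM. Its Il1b (15.96 CPM) and Il6 (0.652 CPM) were within their range. The share of all genes for which P6 female 6 lay below every other P6 mouse was not counted. The 8 of 10 are therefore not shown to be particular to these genes. The mean log2 CPM of the microglial markers of P6 female 6 was 8.16, beside 9.31 to 10.1 in the other P6 mice. With it included, the log2FC of Ccl6 from P6 to 8 weeks became −0.17 (FDR = 0.248), and that of Il1a became 0.42 (FDR = 0.0431).

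Other genes of the pathway are given by list, to be read beside all genes, of which 30.4% rose and 31.4% fell from P6 to P15, and 24% rose and 23.9% fell from P15 to 8 weeks. Of 14 receptors and decoys, 8 rose and 2 fell from P6 to P15. Il6ra and Tnfrsf1b rose by 1.14 and 0.87 on the log2 scale. Il1rn, the secreted antagonist of the IL-1 receptor, fell from 7.30 to 1.12 CPM (log2FC −2.67) and then rose to 2.62 CPM at 8 weeks (log2FC 1.20). From P15 to 8 weeks, 6 of the 14 rose and 3 fell, among them Il1r2, a decoy for IL-1, which rose by 2.19, and Ccr1, which fell by 1.34. Ccr2, the receptor of Ccl2 and Ccl12 and a marker of monocytes, rose from 1.64 CPM at P6 to 4.41 CPM at P15 and 13.5 CPM at 8 weeks.

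Among 7 genes for the maturation and release of IL-1 and TNF, 2 rose and 3 fell from P6 to P15, and 3 rose and none fell from P15 to 8 weeks. Casp4, an inflammatory caspase, rose by 1.42 at the second step, and Casp1, which cleaves pro-IL-1 beta, by 0.94. Of 9 genes for decay and feedback of cytokine transcripts, 4 rose and 1 fell from P6 to P15, and 4 rose and none fell from P15 to 8 weeks. Zfp36l2, of a family that binds AU-rich transcripts, rose by 1.49 at the first step, while Nfkbiz fell by 0.78 and then rose by 0.96, and Tnfaip3 rose by 0.98 at the second step.

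Other chemokines had courses of their own. Of 13 other CC chemokines 9 passed the filter, and 3 rose and 4 fell from P6 to P15. Ccl7, another chemoattractant of monocytes, had means of 65.7, 15.6 and 12.1 CPM at P6, P15 and 8 weeks, with a log2FC of −1.93 at the first step. Ccl8 was highest at P15 (1.21, 10.6 and 1.93 CPM), with log2FC values of 3.06 and −2.49. Of 12 CXC, CX3C and XC chemokines that passed the filter, 5 rose and 4 fell from P6 to P15, among them Cxcl10, with a log2FC of −2.34, and Cxcl14, with 2.51. Of 20 other cytokines that passed, 13 rose and 4 fell at the first step, and 10 rose and 1 fell at the second. Tnfsf13b rose from 0.795 to 2.34 and 18.5 CPM (log2FC 1.66 and 3.03), whereas Csf1 fell from 361 to 158 and 117 CPM (log2FC −1.15 and −0.43).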

How the data were processed

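The authors isolated CD45+ cells, prepared directional mRNA libraries and sequenced them as paired-end reads. Reads were mapped by the authors to the mouse genome (GRCm38/mm10) with STAR. They counted fragments per gene by strand with featureCounts (Subread) and deposited raw counts per gene without normalisation. The release of their annotation is not given in the sources used here, and names came from GENCODE M21. Counts were analysed with edgeR 4.0.16 in R 4.3.3. The filter of 0.5 CPM in 5 or more mice left 17612 genes, libraries were scaled by TMM, and a robust quasi-likelihood fit of the 6 age-by-sex groups over 34 mice gave two-sided tests, adjusted by Benjamini-Hochberg over all genes. Age contrasts averaged the sexes, and 2-fold calls used glmTreat. Levels are CPM after TMM, with a prior count of 2 where log2 is taken. RPKM used the union of exons. Relations used two-sided tests with 100000 permutations in Python 3.11.15. A gene was said to fall into separate ranges where a gap of at least 0.4 of its range left 2 or more mice on each side.

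Alternatives were all 35 mice, 2 other scalings, DESeq2 1.42.0, limma-voom (limma 3.58.1), 2 other filters, a fit of only the groups compared, no term for sex, the replicate block, 2 covariates and each mouse left out in turn. No 2 libraries of a group were copies. Nothing in the labels gives a batch. The 10 genes and the gene lists were chosen with earlier results of these data known. All 10 genes are named. Of each pathway list and comparison, at most the 2 largest rises and 2 largest falls among genes past the test were named, and some receptors by role. The other genes of the receptor list are not reported here by name. No molecular identifiers are described, so PCR copies count as fragments. P-values measure the spread between mice.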

Additional observations from a re-analysis of the deposited data

Results flagged for a closer look

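In each of the 6 age and sex groups, the highest and the lowest mouse was compared with the rest for each of the 10 genes, and 3 of 60 combinations had a mouse far from the others. Chance gives about 1 in 20. Tnf in P15 female 2 was the lowest of 6, with a gap to the next mouse of 0.659 of the range of the group (log2 CPM 6.31 against 7.02). Il6 in P15 male 1 was the lowest of 6, with a gap of 0.642 of the range (log2 CPM −1.59 against 0.04). Ccl2 in 8-week female 1 was the lowest of 6, with a gap of 0.647 of the range (log2 CPM 4.75 against 5.47).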

How the results depend on the processing

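Of 466 alternative values of the members between ages, 431 kept their direction and their side of the threshold, and of 1360 with 1 mouse left out 1334 did. With 1 mouse left out, the number of members called stayed at 8 for P15 against P6 and for P15 against the other ages, and at 6 to 7 and 3 to 4 for 8 weeks against P15 and P6. Uncalled log2FC values changed sign: Ccl9 at 8 weeks against P15 ran from −0.10 to 0.019 and at P15 against the other ages from −0.088 to 0.025, and at 8 weeks against P6 Tnf ran from −0.18 to 0.052 and Ccl3 from −0.10 to 0.029. Ccl6 at 8 weeks against P6 lost its call without 8-week female 1, 4 or 6, 8-week male 1, 2 or 5, P6 female 1, or P6 male 1, 5 or 6 (−0.33 to −0.21 over all), and Il1a gained one without 8-week female 1 (FDR = 0.0321) or P6 male 5 (FDR = 0.0484). With all 35 mice, Ccl12 at P15 against P6 was 0.015, Ccl3 at 8 weeks against P6 0.029 and Ccl9 at P15 against the other ages 0.0068.

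With at least 10 counts in every mouse Il6 was not tested, which left 1 member past 2-fold at 8 weeks against P15 and 1 against P6. With immediate-early genes as a covariate, 4 members were past 2-fold at P15 against P6, 1 at 8 weeks against P15, and 7 were called at 8 weeks against P6. The log2FC was then −0.12 for Ccl2 and −0.17 for Ccl12 at 8 weeks against P15, and −0.36 for Il1a, −0.29 for Il1b, −0.87 for Ccl4 and −0.57 for Ccl12 against P6. With neural markers as a covariate these counts were 4, 1 and 8. The log2FC was then −0.49 for Ccl2, −0.22 for Ccl6 and −0.51 for Ccl12 at 8 weeks against P15, −0.87 for Il1a, −0.13 for Il1b, −0.84 for Ccl4 and −1.10 for Ccl12 against P6, and 0.05 for Ccl9 at P15 against the other ages. The cause was not tested.

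Of 30 relations with immediate-early genes, 13 passed with all 35 mice and 4 with library size scaling, beside 8. Values of r that changed sign were all of relations that did not pass. They were 0.315 for Tnf at P6 and −0.0641 for Il6 at P15 with all 35 mice, −0.139 for Il1a, 0.0666 for Il6 and −0.213 for Ccl2 at P6 and −0.217 for Ccl6 at 8 weeks with library size scaling, and −0.301 for Il1a, −0.271 for Il1b and −0.472 for Ccl2 at P6 after each sex was centred, which was chosen after the data were seen, as were the 2-fold counts other than that of 8 weeks against P6.

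Same-numbered mice of different groups had correlations of their deviations from −0.54 to 0.69 (median 0.0325, 27 of 80 over 0.1). Other pairs had a median of −0.0108, and 2 of 34 mice were most like one with their own number. Whether same-numbered mice shared more than a number cannot be told from these values. With the number as a replicate block, 8, 7, 4 and 8 members were called for P15 against P6, 8 weeks against P15, 8 weeks against P6 and P15 against the other ages, and none between sexes or in the interaction. Il6, at 8 to 221 fragments per mouse, is the member whose precision depth limits most.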
